A study of Homo sapiens with 44 samples.

Results

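The genes described here make, move and sense cholesterol and the fatty acids regulated with it. They were chosen as a list of 32 gene symbols, by function and not by any measured value, though with earlier results of these data known. All 32 were found among the 40663 symbols of the count table. By role the list held 7 genes of the mevalonate arm, 11 of the sterol arm, 4 regulators, 6 genes of sterol transport and oxysterol handling, and 4 of fatty acid synthesis and desaturation. Of the 32, 22 had enough counts to be tested and 10 did not.

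The measurements were bulk RNA-seq of Ccd18-Co, a fibroblast line of human colon, in 44 libraries. Unstimulated cells and cells given TNF, IL-1β, TGF-β1, oncostatin M (OSM), IFNα, IFNγ or 1 of the interleukins IL-6, IL-13, IL-17A and IL-22 made up 11 groups of 4 libraries. Cells grown in 20% serum, up to passage 20, went without serum for 72 h and were then treated for 24 h, so that every group, the unstimulated one included, was starved of serum. Cytokines were used at 10 ng/ml, and the labels give 0.1 ng/ml for IL-1β, a dose that is not the same in every source. All groups are 1 cell line, and nothing in the labels says that libraries of a group came from separate cultures, so p-values measure only the spread between these libraries, which may be technical. The question was which of these genes each cytokine moved, and whether cytokines differed.

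Cells build cholesterol from acetyl-CoA in a mevalonate arm, which ends in farnesyl diphosphate, and a sterol arm, which closes the ring and trims it. When sterols in the endoplasmic reticulum fall, SCAP carries the transcription factors encoded by SREBF1 and SREBF2 to the Golgi, and their cleaved forms raise the transcription of the synthesis genes. INSIG1, itself a target, holds SCAP back when sterols are plentiful, and oxysterols such as the product of CH25H act through it. Serum lipoproteins are the usual outside source of cholesterol for cultured fibroblasts, and lysosomal NPC1 and NPC2 release it from them.

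Promoters of the members are shown first, since several members rose after TNF and several others fell after OSM. In RefSeq's promoters (GRCh38.p14, 250 bases before to 50 bases after the first start listed for each gene), 28 of the 32 members had an entry. The letters CCAAT, bound by NF-Y, a partner of the SREBF proteins, stood on either strand in 18 of the 28 (64.3%) and in 12 of the 15 synthesis genes with an entry (80.0%). They stood in 35.7% of all 27305 promoters and in 37.5% of those of tested genes. The sterol response element core CACCCCAC stood in 2 members (7.14%), SREBF2 and ABCA1, against 2.72% of all promoters. Its looser form CACNCCAC, which contains the core, was found in 5 (17.9% against 5.74%), and the E-box CACGTG in 5 (17.9% against 7.43%). These are matches of letters only. All 6 members that rose after TNF had an entry, and 3 of them held CCAAT (INSIG1, FDPS and EBP) while IDI1, FADS1 and FADS2 did not. Of the 4 that fell after OSM, 3 had an entry (ACAT2 had none) and all 3 held it. NPC2, which fell after TNF, held it and NPC1, which rose after OSM, did not. The 6 stretches that follow were picked because they hold these letters, first the 3 genes that rose after TNF and then the 3 that fell after OSM, so they are no sample of the called members. Each is the part of the 220 bases before the RefSeq start that lies ahead of the gene in GENCODE, written 5′ to 3′ along the gene, with CCAAT or its reverse complement in capitals, and in INSIG1 also the match to the looser element.
INSIG1 (chr7:155297658-155297775, plus strand): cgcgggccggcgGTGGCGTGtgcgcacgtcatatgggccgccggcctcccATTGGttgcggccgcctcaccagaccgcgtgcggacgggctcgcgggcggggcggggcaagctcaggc
FDPS (chr1:155308646-155308747, plus strand): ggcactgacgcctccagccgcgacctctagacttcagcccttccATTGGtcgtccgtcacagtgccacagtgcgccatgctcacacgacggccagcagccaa
EBP (chrX:48521588-48521798, plus strand): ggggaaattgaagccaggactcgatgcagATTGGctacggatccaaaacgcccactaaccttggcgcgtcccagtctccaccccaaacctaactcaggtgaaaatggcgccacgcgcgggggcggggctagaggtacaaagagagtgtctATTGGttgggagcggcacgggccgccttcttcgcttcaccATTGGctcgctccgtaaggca
HMGCS1 (chr5:43313513-43313632, minus strand): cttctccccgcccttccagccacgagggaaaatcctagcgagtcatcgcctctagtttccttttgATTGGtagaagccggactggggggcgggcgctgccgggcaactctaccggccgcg
MSMO1 (chr4:165327449-165327666, plus strand): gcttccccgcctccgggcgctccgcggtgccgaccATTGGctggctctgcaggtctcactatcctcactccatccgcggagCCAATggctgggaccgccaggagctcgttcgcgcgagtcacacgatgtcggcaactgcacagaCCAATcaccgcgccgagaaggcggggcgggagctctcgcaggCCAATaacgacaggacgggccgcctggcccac
STARD4 (chr5:111512591-111512755, minus strand): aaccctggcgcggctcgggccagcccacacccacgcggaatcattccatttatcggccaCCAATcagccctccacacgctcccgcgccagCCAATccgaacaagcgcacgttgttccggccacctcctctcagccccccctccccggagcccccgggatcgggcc
MSMO1 held 4 matches in its stretch, EBP 3, STARD4 2 and the other 3 genes 1 each.

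Total counts per library lay between 742173 and 2213424, and the members took 0.2056% to 0.6036% of them. The cells carried the markers of their label: all 10 fibroblast genes passed the count filter, with a summed level of 17300 to 52500 CPM (a library's counts scaled to a common library size). These markers moved with some cytokines. TNF lowered 6 of the 10 (median log2 difference of the list -0.67, summed level 21300 to 27700 CPM) and IL-1β 4 (median -0.46, 24100 to 32400 CPM), COL1A1, COL3A1, THY1 and VIM among both, with 29300 to 41200 CPM in unstimulated cells. TGF-β1 also lowered 4 (median -0.39, 25800 to 30500 CPM). IFNα and IFNγ lowered 2 each (27000 to 35200 and 17300 to 34400 CPM) and IL-17A 1. IL-13 raised 2 and lowered 1, and OSM raised 1. Summed smooth muscle markers lay at 3.81 to 53.8 CPM, with 16.9 to 43.1 CPM in unstimulated cells, 6.96 to 14.8 CPM after TNF and 3.81 to 27.2 CPM after IL-1β. Of the 4 tested, 1 was called lower after TNF (median -1.65) and 0 after IL-1β (median -1.27). Epithelial markers lay at or under 26.6 CPM. Summed leukocyte markers stayed at or under 4.15 CPM and endothelial markers at or under 6.03 CPM in every library, with CD3E and the epithelial factor CDX2 at 0 throughout. Known targets followed the labels where a target was listed, such as CXCL8 at a mean of 16700 CPM after TNF and 170 CPM in unstimulated cells, and IFIT1 at 15500 CPM after IFNα and 71.6 CPM in unstimulated cells. For IL-6, IL-17A and IL-22 none was listed, so their labels were not checked in this way. The summed level of 8 proliferation genes was 643 to 719 CPM in unstimulated cells and lay wholly below that in 5 groups, at 165 to 207 CPM after IFNα, 188 to 301 CPM after IL-13, 328 to 478 CPM after TGF-β1, 362 to 517 CPM after IFNγ and 367 to 409 CPM after OSM. Of the 8 genes 5, 6, 4, 5 and 2 were called lower in these groups. The part of the fibroblast, smooth muscle and proliferation genes in the results below was not tested.

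Per kb of transcript, the unstimulated cells held most CYP51A1, the lanosterol demethylase, at a mean of 398 CPM per kb. ABCA1, which exports cholesterol to lipoproteins, stood at 164 CPM per kb, and the lysosomal carrier NPC2 at 124 CPM per kb. EBP, ACAT2, HMGCS1, FDPS and MSMO1 followed at 85.0, 74.1, 64.3, 63.0 and 62.8 CPM per kb, and in this order the libraries of each of the 8 genes overlapped those of the next. The lowest tested members were SREBF2 at 1.09 and FADS2 at 1.08 CPM per kb. At the other end stood the 10 members under the count filter, MVK, MVD, LSS, TM7SF2, DHCR7, SREBF1, SCAP, CH25H, FASN and MYLIP, all at or under 0.833 CPM per kb. Level and base composition went together on this list. Transcripts of the 22 tested members had a median GC content of 46.5% and those of the other 10 a median of 60.9%, with 45.0% over all tested genes. Across the 32 members, GC content and level per kb had a Spearman rho of -0.72, a description of 4 libraries of the same cells and not of independent points. Synthesis is a chain in which each enzyme is needed. CYP51A1 and LSS, the next enzyme upstream, nevertheless differed from 398 to 0.296 CPM per kb. CYP51A1 shares exon sequence with AKAP9 on the opposite strand, which held 14797 counts to the 80399 of CYP51A1. Since the use of strand is not given, reads from the shared stretch cannot be told apart. The part of GC content and of shared sequence in these levels was not tested.

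**Figure D1:**
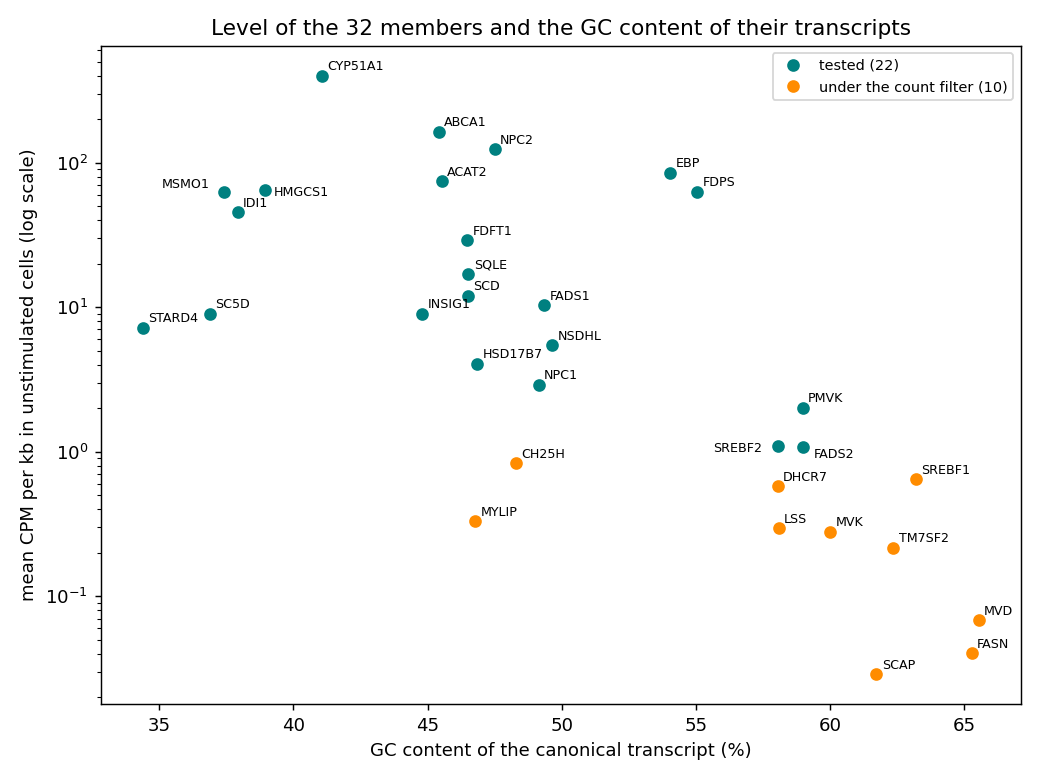
Mean level of each of the 32 members in the 4 unstimulated libraries, in CPM per kb of transcript on a log scale, against the GC content of its transcript in percent, with tested members in teal and those under the count filter in orange. Members of high GC content tend to lie low (Spearman rho -0.72), with exceptions such as MYLIP, at 46.78% GC and 0.33 CPM per kb, and CYP51A1 lies highest at 398 CPM per kb.

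Among the 10 members under the filter no library held more than 13 counts. CH25H, which makes an oxysterol, had counts of 0, 0, 8 and 0 in the unstimulated libraries and 0 in all 4 libraries of IL-6, IL-13, IL-17A, IFNγ and OSM. Its highest other values were 5 counts, in 1 library of IFNα and 1 of TGF-β1. SREBF1, one of the 2 SREBP genes, had 0, 6, 3 and 9 counts in unstimulated cells and 3 in each of the 4 IFNα libraries, and 0 to 6 in the libraries of the other 9 groups. A count of 0 allows up to 3 counts, or 1.39 to 3.85 CPM by library, so falls and small rises could have been missed. A large rise from so low a level could be called. CCL26, outside this list, went from a mean of 1.21 CPM in unstimulated cells to 908 CPM after IL-13 and was called. MYLIP, a ubiquitin ligase that directs the removal of lipoprotein receptors, had 13, 3, 4 and 3 counts after IFNα and 4, 1, 0 and 2 in unstimulated cells. When all genes with any count were fitted, none of the 10 had an adjusted p under 0.05 for any cytokine.

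Libraries of a group differed together in 3 abundant members. In unstimulated cells HMGCS1 stood at 143, 312, 561 and 359 CPM, CYP51A1 at 721, 1350, 1700 and 1250 CPM, and ABCA1 at 753, 1560, 2430 and 2090 CPM in libraries 1 to 4. Library 1 was the lowest and library 3 the highest for all 3 genes. In 10 of the 11 groups the same library was the highest for all 3, and in 9 groups the same library was the lowest. Within a group the highest library exceeded the lowest by a median of 1.86 times for HMGCS1, 1.83 times for CYP51A1 and 2.43 times for ABCA1. A general property of the libraries moved with them, namely the deviation of the fifth of genes with the lowest GC content less that of the fifth with the highest, which ran from -0.64 in unstimulated library 1 to 0.73 in TGF-β1 library 4 on the log2 scale. In 7 of the 10 groups the library highest for the 3 genes was also highest on this measure. For that reason all tests were repeated with each library's trend on GC content and length removed, an alternative chosen after seeing the data. Against unstimulated cells 5 member calls were lost and 5 gained, each given with its gene below, and between cytokines 0 were lost and 0 gained.

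**Figure D2:**
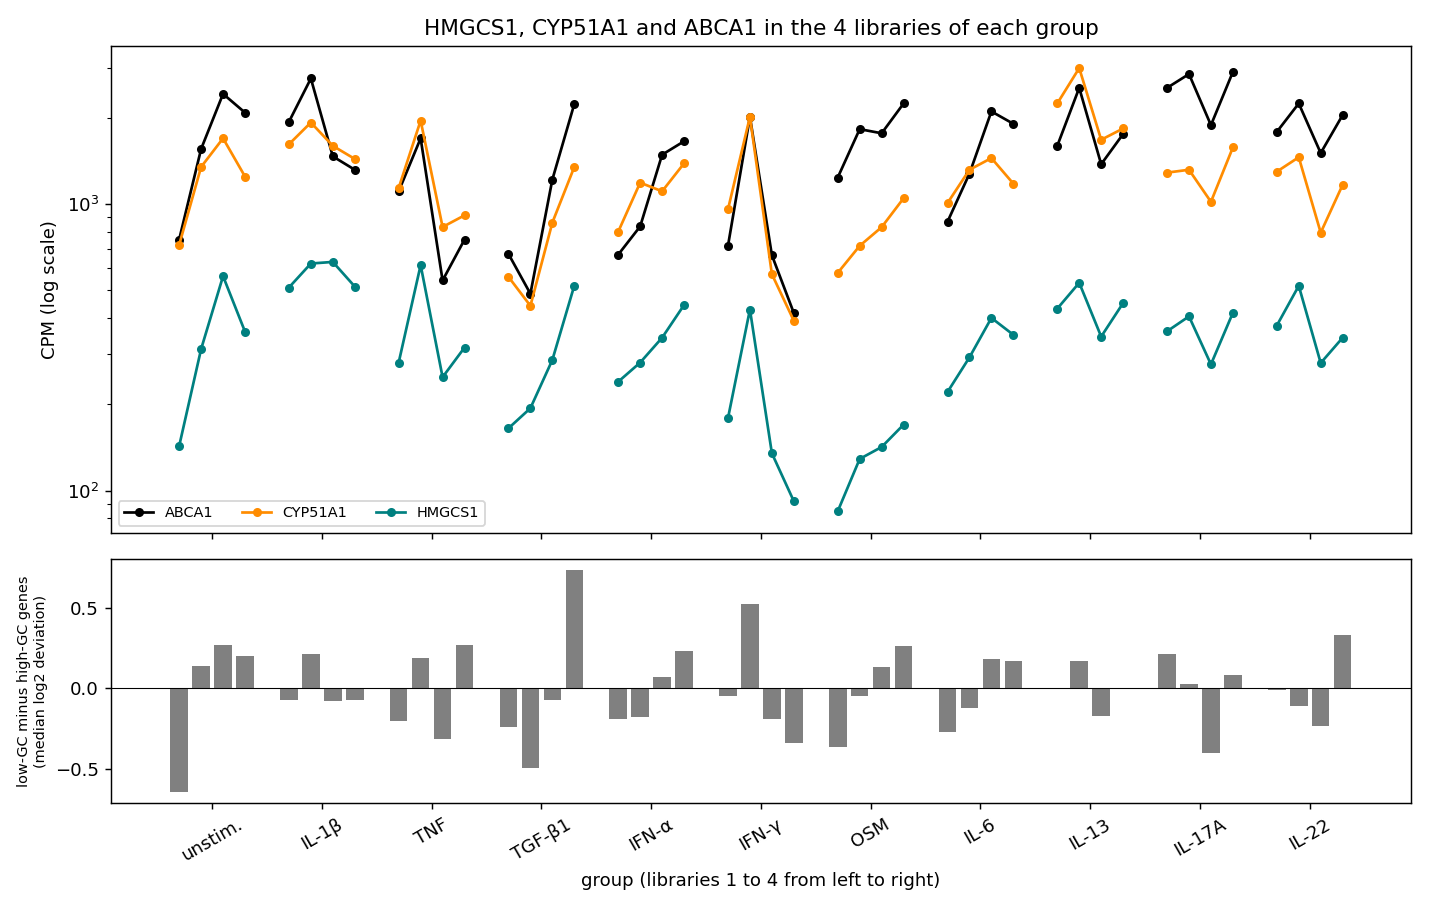
Upper panel, CPM on a log scale of HMGCS1, CYP51A1 and ABCA1 in libraries 1 to 4 of each group. Lines join the libraries for reading only, since the labels do not say what their numbers mean. Lower panel, the median log2 deviation from the group mean of low-GC genes less that of high-GC genes in the same library. The 3 genes are high or low in the same libraries, for example all highest in IFNγ library 2 and TGF-β1 library 4.

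Counts of members called at an adjusted p under 0.05 (edgeR quasi-likelihood test, 9513 genes) were as follows, each beside the share of all tested genes called in that comparison, and all 10 comparisons share the unstimulated libraries. TNF changed 7 of 22 tested members (11.5% of all genes), 6 up (5.37%) and 1 down (6.09%). IL-1β changed 5 (7.38%), 4 up (3.46%) and 1 down (3.92%). OSM changed 5 (3.96%), with 1 up (1.42%) and 4 down (2.54%). IFNγ changed 4 (10.6%), with 2 up (5.52%) and 2 down (5.13%). IFNα changed 2 (9.85%), both up (4.99%), and TGF-β1 changed 1 (5.69%), which was up (2.61%). No member passed after IL-6 (0.0105%), IL-13 (3.93%), IL-17A (1.52%) or IL-22 (0%) in edgeR. At an unadjusted p under 0.05 there were 1, 2, 4 and 5 members for these cytokines in edgeR, where 2.45%, 15.6%, 12.6% and 10.9% of all genes had such a p, and DESeq2's adjusted p called 0, 0, 1 and 0. Altogether 14 members were called for at least 1 cytokine, in 16 rises and 8 falls. The share of all genes called for at least 1 cytokine was not computed. Neither this count nor the counts by arm below can therefore be set against all genes. A gene passes the count filter if 1 group alone is high enough, so these shares describe the 22 tested genes and not the list of 32.

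The median log2 difference of the 22 tested members was 0.53 after TNF and 0.46 after IL-1β, where that of all tested genes was -0.02 and -0.01. After IL-1β 20 of the 22 differences were positive, and after TNF 16. After OSM the median was -0.10 and after IFNγ -0.18, where that of all tested genes was 0.002 and -0.011. Of the 22 differences 15 and 14 were negative. IL-6 and IL-22, for which 0 members were called, had medians of -0.054 and -0.102, with 15 and 12 differences negative. On these measures OSM did not stand apart from them. In bulk RNA, fewer cells that express a gene and less of its RNA per cell cannot be told apart, here or below.

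**Figure D3:**
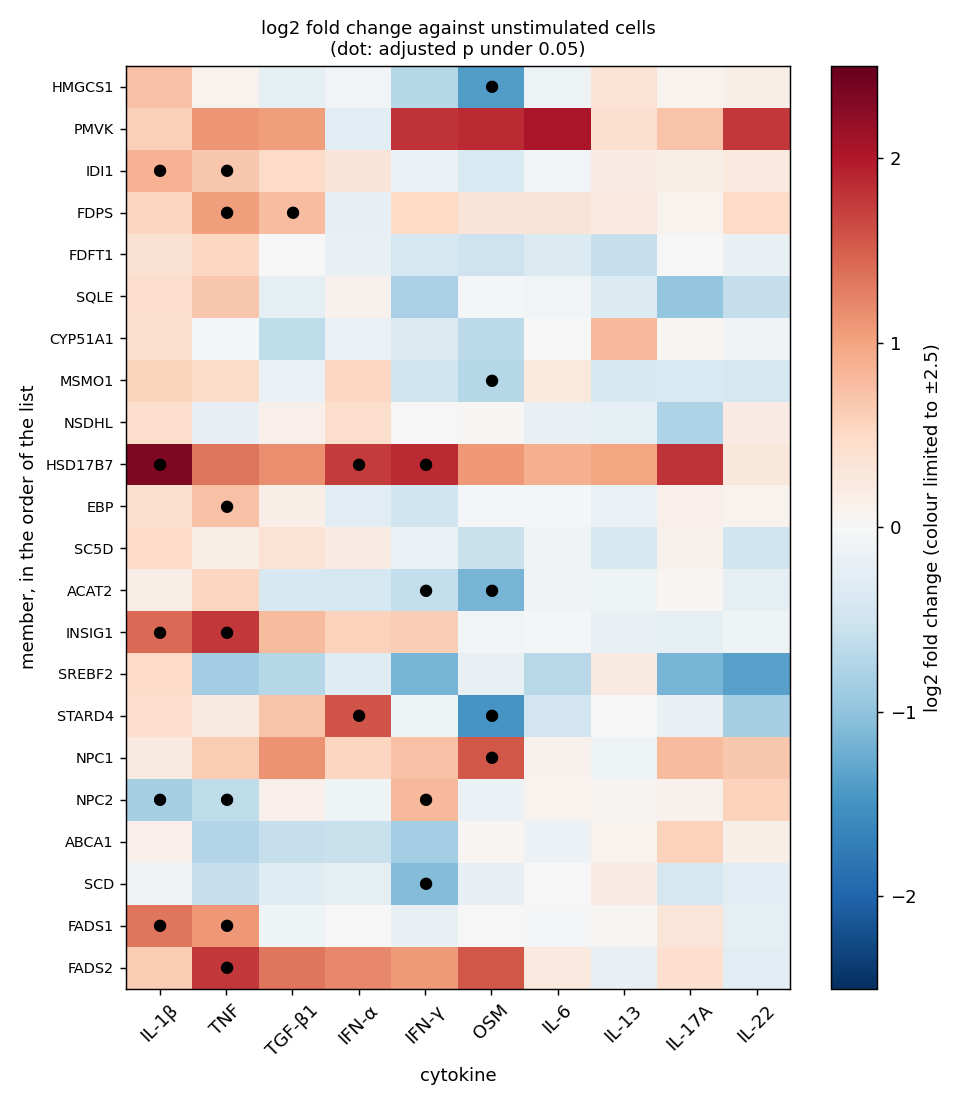
Log2 fold change of the 22 tested members (rows) against unstimulated cells for the 10 cytokines (columns), in red where higher and in blue where lower, with a dot where the adjusted p was under 0.05. INSIG1 and FADS1 carry dots for both IL-1β and TNF, and HMGCS1, MSMO1, ACAT2 and STARD4 carry dots in blue for OSM.

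In the mevalonate arm 4 of 5 tested genes were called for at least 1 cytokine. HMGCS1 (chr5:43287470-43313512, minus strand, ENSG00000112972.15), the first enzyme committed to the pathway, stood at 84.7, 129, 142 and 170 CPM after OSM, against the 143 to 561 CPM given above for unstimulated cells. Only library 1 of the unstimulated cells, at 143 CPM, lay within the OSM range. HMGCS1 fell by 1.39 on the log2 scale (SE 0.35, adjusted p = 0.014). The call was lost without unstimulated library 3 (-1.02, adjusted p = 0.139) or without OSM library 1 (adjusted p = 0.0919), and with the GC and length trend removed it was kept (-1.19, adjusted p = 0.0188). After IL-1β the 4 libraries stood at 512, 621, 629 and 516 CPM, the narrowest group for this gene relative to its mean, and the difference of 0.73 did not pass (adjusted p = 0.253).

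IDI1 (chr10:1039152-1049119, minus strand), the isomerase that makes the second isoprenoid building block, stood at 110, 144, 134 and 109 CPM in unstimulated cells. It reached 175, 232, 249 and 249 CPM after IL-1β, and 165, 215, 176 and 234 CPM after TNF. Neither group overlapped the unstimulated libraries. The rises were 0.86 (SE 0.20, adjusted p = 0.00244) and 0.67 (SE 0.20, adjusted p = 0.0195) on the log2 scale. The TNF call was lost without unstimulated library 1 (adjusted p = 0.0555), unstimulated library 4 (0.0612) or TNF library 4 (0.0648). After TGF-β1 the difference of 0.48 did not pass (adjusted p = 0.161), and with the GC and length trend removed it did (0.63, adjusted p = 0.0215).

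FDPS (chr1:155308748-155320666, plus strand), the synthase of farnesyl diphosphate, stood at 126, 99.1, 61.9 and 70.4 CPM in unstimulated cells and at 215, 158, 184 and 185 CPM after TNF. All TNF libraries lay above all unstimulated ones, and the gene rose by 1.05 (SE 0.20, adjusted p = 0.000151). After TGF-β1 it stood at 173, 150, 188 and 99.8 CPM, with library 4 inside the unstimulated range, a rise of 0.77 (SE 0.20, adjusted p = 0.0132), the only member called for that cytokine. That call was lost without unstimulated library 3 or 4 or TGF-β1 library 1 or 3 (adjusted p 0.0546 to 0.0662) and when only the 2 groups were fitted (0.146). Pseudogenes named after FDPS held 8 counts in all libraries and FDPS 7599, and RUSC1-AS1, which overlaps it on the opposite strand, held 497.

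ACAT2 (chr6:159762045-159779112, plus strand), the cytosolic thiolase that joins acetyl-CoA units, was steady in unstimulated cells at 125, 104, 112 and 109 CPM. After OSM it stood at 49.3, 61.1, 32.7 and 57.7 CPM, all below the lowest unstimulated library. It fell by 1.17 on the log2 scale (SE 0.20, adjusted p = 8.68e-05), a call kept in all 15 other fits. After IFNγ the values were 79.8, 71.4, 76.3 and 66.2 CPM, also without overlap, and the fall of 0.62 (SE 0.19, adjusted p = 0.0297) was lost when any single library of either group was left out (adjusted p 0.0504 to 0.116), with all genes of any count (0.14) and with only the 2 groups fitted (0.0824). TNF libraries lay at 184, 142, 181 and 146 CPM, all above the unstimulated ones, with a difference of 0.53 that missed the threshold (adjusted p = 0.0567). After IFNα the difference of -0.44 did not pass (adjusted p = 0.152), and with the trend removed it did (-0.57, adjusted p = 0.0271). The libraries of IFNα (68.3 to 95.5 CPM) and of TGF-β1 (67.5 to 101 CPM), the latter without a call, also all lay below the unstimulated ones. ACAT2 shares exon sequence with SOD2 and TCP1 on the opposite strand, which held 61123 and 25516 counts to its 6583, and since the use of strand is not given, reads from the shared stretch cannot be told apart. PMVK, the kinase of the middle step, was low, at 1.41 to 2.45 CPM in unstimulated cells and 0 to 16.7 CPM elsewhere, and was called for no cytokine.

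In the sterol arm 3 of 8 tested genes were called. MSMO1 (chr4:165327667-165343164, plus strand), a methyl sterol oxidase, stood at 169, 175, 90.8 and 124 CPM in unstimulated cells and at 103, 87.2, 68.7 and 81.6 CPM after OSM. Only OSM library 1 lay within the unstimulated range. It fell by 0.72 on the log2 scale (SE 0.21, adjusted p = 0.038). That call was lost without unstimulated library 1, 2 or 4 or OSM library 2, 3 or 4 (adjusted p 0.0607 to 0.194), with all genes of any count (0.0516), with only the 2 groups fitted (0.0824) and with the GC and length trend removed (-0.54, adjusted p = 0.206). IFNα libraries stood at 223, 186, 203 and 184 CPM, all above the unstimulated ones, with a difference of 0.51 that did not pass (adjusted p = 0.115).

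HSD17B7 (chr1:162790702-162812823, plus strand), a sterol ketone reductase, was scarce in unstimulated cells at 6.37, 9.48, 4.22 and 4.78 CPM. It stood at 22.7, 20.5, 50.2 and 33.1 CPM after IL-1β, at 23.7, 18.4, 26.2 and 15.6 CPM after IFNα, and at 18.1, 28.2, 20.8 and 24.2 CPM after IFNγ. No library of these 3 groups overlapped the unstimulated ones. The rises on the log2 scale were 2.33 (SE 0.51, adjusted p = 0.00138), 1.74 (SE 0.51, adjusted p = 0.0189) and 1.87 (SE 0.51, adjusted p = 0.0119). IL-17A libraries, at 13.4, 28.1, 29.6 and 17.2 CPM, did not overlap either, and the difference of 1.81 missed the threshold in edgeR (adjusted p = 0.06). The libraries of TNF (12.7 to 20.4 CPM), TGF-β1 (9.57 to 21.1 CPM) and IL-13 (11.5 to 13.9 CPM) also all lay above the unstimulated ones, with differences of 1.33, 1.16 and 0.99 that did not pass (adjusted p = 0.0897, 0.208 and 0.361). HSD17B7 was the 1 member that DESeq2 called for IL-17A. The IFNα call was lost without unstimulated library 3 (adjusted p = 0.0617), unstimulated library 4 (0.0622) or IFNα library 3 (0.0537). The gene rests on 1051 counts in 44 libraries, 2 pseudogenes named after it hold 68 more, and how the authors' counting divided reads among them is uncertain. HSD17B7 was thus the member called for the most cytokines, together with NPC2.

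EBP (chrX:48521799-48528716, plus strand), the sterol isomerase, stood at 110, 93.3, 91.5 and 88.1 CPM in unstimulated cells and at 173, 160, 171 and 131 CPM after TNF, without overlap. It rose by 0.73 on the log2 scale (SE 0.19, adjusted p = 0.00772). With the GC and length trend removed the difference was 0.35 (adjusted p = 0.271). IFNγ libraries stood at 72.3, 68.1, 74.6 and 54.8 CPM, all below the unstimulated ones, with a difference of -0.51 that did not pass (adjusted p = 0.0936). With the trend removed EBP was called lower after IFNγ (-0.91, adjusted p = 0.000646) and after IFNα (-0.54, adjusted p = 0.0496).

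The other 5 tested sterol-arm genes were called for no cytokine. FDFT1, squalene synthase, stood at 50.5 to 66.8 CPM in unstimulated cells, at 73.2 to 91.5 CPM after TNF (0.52, adjusted p = 0.156) and at 36.2 to 46.0 CPM after OSM (-0.52, adjusted p = 0.28). SQLE, the epoxidase, had its highest mean after TNF, 79.4 ± 17.4 CPM (SD, n = 4), and its lowest after IL-17A, 25.3 ± 16.7 CPM, with 50.1 ± 11.3 CPM in unstimulated cells. CYP51A1 had its highest mean after IL-13, with libraries at 2250, 2990, 1680 and 1840 CPM. Library 3 of IL-13 lay just under the highest unstimulated library, and the difference of 0.80 did not pass (adjusted p = 0.185). SC5D, a desaturase, ranged over group means of 42.2 to 86.2 CPM, highest after IL-1β and lowest after OSM, and those of NSDHL, a sterol dehydrogenase, from 6.01 to 13.8 CPM. In the F test over all 11 groups, FDFT1, SQLE, CYP51A1 and SC5D passed (adjusted p = 0.00111, 0.00513, 0.00765 and 0.00351), although no single cytokine did so against unstimulated cells. That test called 18 of the 22 tested members, where it called 35.7% of all genes.

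Among the regulators INSIG1 (chr7:155297776-155310235, plus strand) was the one called. Its libraries stood at 24.5, 13.9, 36.6 and 30.1 CPM in unstimulated cells, at 59.5, 41.1, 114 and 67.4 CPM after IL-1β, and at 60, 102, 78 and 119 CPM after TNF. Every IL-1β and TNF library lay above every unstimulated one. On the log2 scale INSIG1 rose by 1.42 (SE 0.31, adjusted p = 0.00159) and 1.77 (SE 0.32, adjusted p = 6.71e-05), and both calls were kept in all 15 other fits of each. TGF-β1 libraries stood at 59.3, 44.7, 36.3 and 41.8 CPM, 1 of them just inside the unstimulated range, with a difference of 0.79 that did not pass (adjusted p = 0.144). SREBF2, the SREBP gene most tied to sterol synthesis, was near the limit of detection, at 7.34, 5.10, 7.74 and 2.73 CPM in unstimulated cells and at group means of 2.16 to 8.11 CPM. It was called for no cytokine, and its F test over the 11 groups had an adjusted p of 0.586. Every group overlapped the unstimulated libraries, and at this depth a small difference in SREBF2 could have been missed. SREBF2-AS1, on the opposite strand of shared exon sequence, held 1653 counts to the 285 of SREBF2.

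Transport genes moved in different directions. STARD4 (chr5:111496033-111512590, minus strand), a soluble sterol carrier, stood at 37.7, 19.7, 52.1 and 23.9 CPM in unstimulated cells and at 110, 105, 94.5 and 88.4 CPM after IFNα. Each IFNα library was above each unstimulated one and above all libraries of the other 9 cytokines. STARD4 rose by 1.57 on the log2 scale (SE 0.33, adjusted p = 0.000581), kept in all 15 other fits. After OSM it stood at 15.2, 16.6, 2.67 and 13.2 CPM, all below the unstimulated libraries, and fell by 1.47 (SE 0.36, adjusted p = 0.01). The OSM call was lost without unstimulated library 3 (adjusted p = 0.0936) or OSM library 3 (0.0712), with only the 2 groups fitted (0.0799) and with the GC and length trend removed (-1.13, adjusted p = 0.0915). An antisense transcript, STARD4-AS1, shares its exon sequence and held 914 counts to its 2468, and reads of the 2 cannot be told apart without strand.

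NPC1 (chr18:23506184-23586506, minus strand), which passes cholesterol through the lysosomal membrane, stood at 14.2, 16.8, 9.15 and 15.0 CPM in unstimulated cells and at 28.6, 47.4, 42.0 and 45.4 CPM after OSM. The groups did not overlap, and NPC1 rose by 1.56 on the log2 scale (SE 0.37, adjusted p = 0.00731), kept in all 15 other fits. RMC1, on the opposite strand, shares exon sequence with NPC1 and held 1296 counts to its 1376. It was the member that rose after OSM where HMGCS1, MSMO1, ACAT2 and STARD4 fell. TGF-β1 libraries, at 17.9, 30.8, 38.1 and 33.8 CPM, also lay above the unstimulated ones, with a difference of 1.12 that did not pass (adjusted p = 0.0673), though it did with the trend removed (1.23, adjusted p = 0.0449).

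NPC2 (chr14:74476192-74494177, minus strand), the soluble partner that hands cholesterol to NPC1 in the lysosome, stood at 95, 75.8, 150 and 88.1 CPM in unstimulated cells. IL-1β libraries lay at 53.5, 57.7, 54.0 and 63.6 CPM and TNF libraries at 81.2, 66.3, 69.8 and 47.7 CPM, while those of IFNγ lay at 183, 191, 200 and 140 CPM. IL-1β libraries were all below the unstimulated ones, TNF library 1 lay inside their range, and of IFNγ library 4 did, since unstimulated library 3 stood apart at 150 CPM. NPC2 fell by 0.84 on the log2 scale after IL-1β (SE 0.22, adjusted p = 0.00792) and by 0.63 after TNF (SE 0.22, adjusted p = 0.0484), and rose by 0.81 after IFNγ (SE 0.21, adjusted p = 0.00756). Without unstimulated library 3 the IL-1β difference was -0.59 (adjusted p = 0.101) and the TNF difference -0.37 (adjusted p = 0.344). The TNF call was also lost without unstimulated library 1 or 4 or TNF library 2, 3 or 4 (adjusted p 0.0517 to 0.205), with DESeq2 (0.057), with DESeq2's size factors (0.0635), with either other count filter (0.12 and 0.0519) and with only the 2 groups fitted (0.147). The IFNγ call was lost with only the 2 groups fitted (0.0574) and with the GC and length trend removed (0.55, adjusted p = 0.0646). ISCA2, on the opposite strand, shares exon sequence with NPC2 and held 4976 counts to its 6691.

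ABCA1 was called for no cytokine. Its group means ran from 955 ± 724 CPM after IFNγ (SD, n = 4) to 2550 ± 466 CPM after IL-17A, with 1710 ± 731 CPM in unstimulated cells. Its adjusted p in the F test over all groups was 0.0511.

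In the fatty acid arm, all 3 tested genes were called for at least 1 cytokine. FADS1 (chr11:61799627-61829318, minus strand), a desaturase of polyunsaturated fatty acids, stood at 59.7, 41.6, 35.9 and 43.0 CPM in unstimulated cells, at 115, 102, 128 and 115 CPM after IL-1β, and at 84.7, 109, 91.5 and 101 CPM after TNF. The 8 stimulated libraries stood above all libraries of the other 9 groups. FADS1 rose by 1.35 (SE 0.23, adjusted p = 5.15e-05) and 1.09 (SE 0.23, adjusted p = 0.000828) on the log2 scale, and both calls were kept in all 15 other fits of each. FADS2 (chr11:61792980-61867354, plus strand), a related desaturase, was at 4.90, 2.92, 2.11 and 3.42 CPM in unstimulated cells and at 9.88, 8.61, 18.0 and 10.7 CPM after TNF, a rise of 1.78 (SE 0.60, adjusted p = 0.0431). The FADS2 call was lost without unstimulated library 2, 3 or 4 or TNF library 1, 3 or 4 (adjusted p 0.0542 to 0.148), with all genes of any count (0.187) and with the GC and length trend removed (1.56, adjusted p = 0.0707). The genes overlap on opposite strands, with 3656 counts for FADS1 and 399 for FADS2 in all libraries, and FADS2 shares exon sequence with FEN1 (946 counts) on its own strand, so part of the reads cannot be told apart.

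SCD (chr10:100347233-100364826, plus strand), which makes monounsaturated fatty acids, was called only after IFNγ, and as lower. It stood at 57.3, 70.0, 65.4 and 58.1 CPM in unstimulated cells and at 39.9, 20.8, 28.6 and 29.2 CPM after IFNγ. No library overlapped, and SCD fell by 1.08 on the log2 scale (SE 0.21, adjusted p = 0.000322), a call kept in all 15 other fits. TNF libraries lay at 37.4, 47.4, 37.5 and 46.6 CPM, all below the unstimulated ones, with a difference of -0.57 that missed the threshold (adjusted p = 0.0642). The IL-17A libraries, at 55.7, 40.6, 52.9 and 37.9 CPM, also all lay below the unstimulated ones, without a call.

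**Figure D4:**
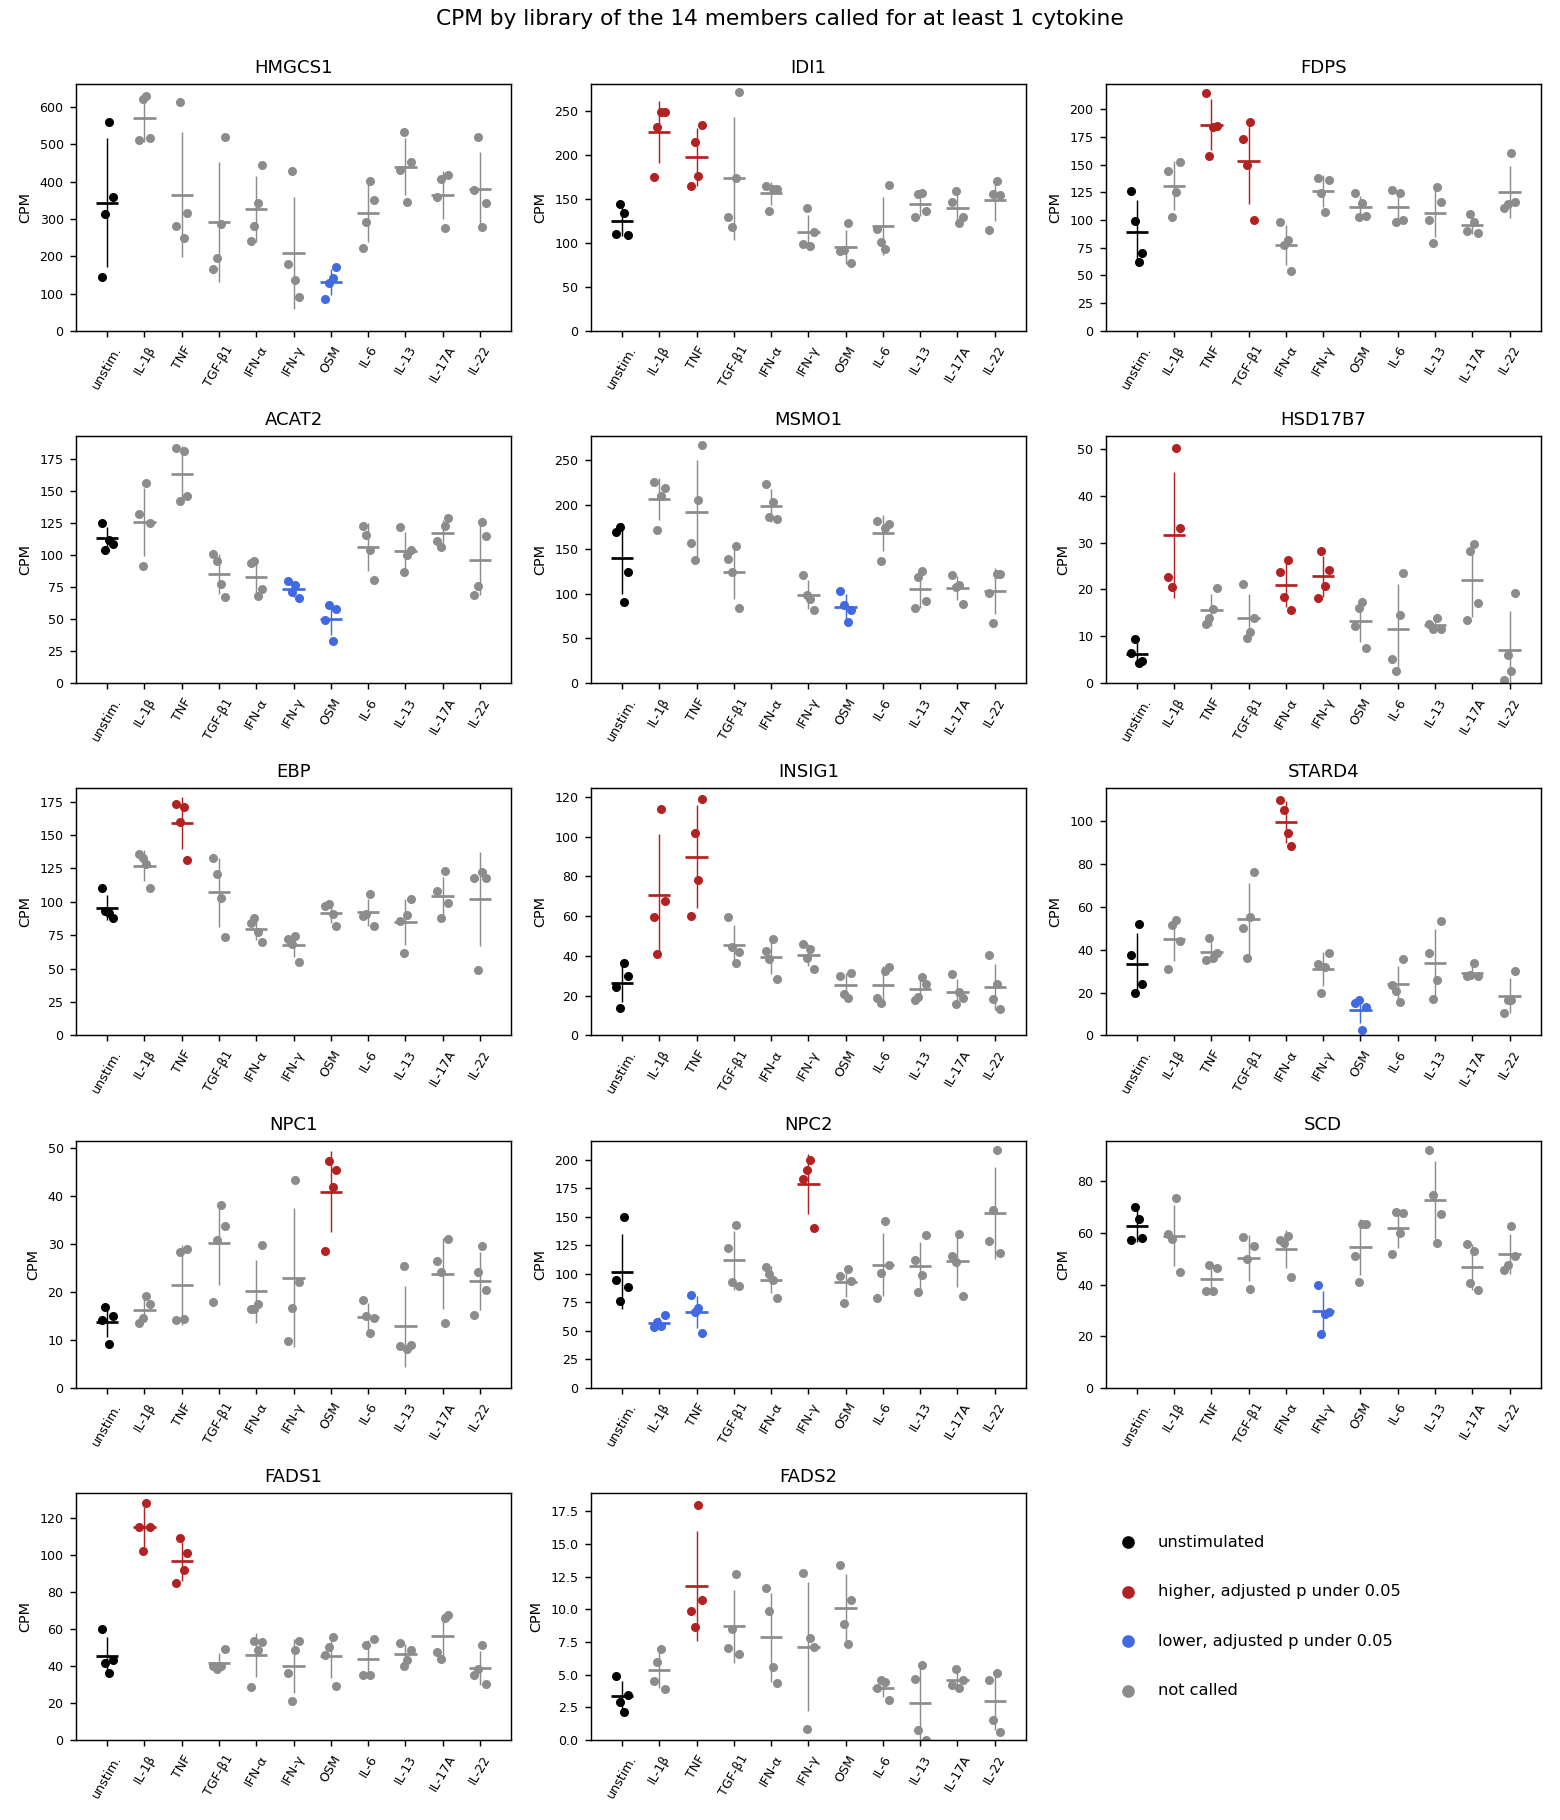
CPM by library (points), with the group mean (bar) and SD (line), of the 14 members called for at least 1 cytokine, in unstimulated cells (black) and the 10 cytokine groups. Groups called higher are red and those called lower are blue, for example INSIG1 and FADS1 after IL-1β and TNF in red, and ACAT2 after OSM in blue.

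Cytokines were also compared directly, in the same fit. Between IFNα and IFNγ 5 members differed (9.39% of all genes were called), 3 of them higher after IFNα (4.93%) and 2 lower (4.46%). STARD4 was 1.68 higher on the log2 scale after IFNα (SE 0.34, adjusted p = 0.000458), MSMO1 1.01 higher (SE 0.21, adjusted p = 0.000697) and SCD 0.85 higher (SE 0.21, adjusted p = 0.00531). The other two were lower after IFNα than after IFNγ, NPC2 with a difference of -0.91 (SE 0.21, adjusted p = 0.00269) and FDPS with -0.70 (SE 0.20, adjusted p = 0.0184). None of these 5 overlapped between the groups. They were picked by adjusted p, and the share of all genes without overlap is not given. The FDPS call was lost without IFNα library 4 (adjusted p = 0.124) or IFNγ library 4 (0.0549), with all genes of any count (0.0548) and with only the 2 groups fitted (0.0657). The SCD call was lost in the latter fits too (0.0959 and 0.0744). HSD17B7, called for both interferons, stood at means of 21.0 and 22.8 CPM, a difference of -0.12.

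TNF and IL-1β differed in no member in edgeR's adjusted test (1.15% of all genes were called), with 4 members (and 11.5% of all genes) at an unadjusted p under 0.05 and 0 called by DESeq2's adjusted p. The median log2 difference of TNF less IL-1β over the 22 tested members was -0.15, and single members ranged from -1.36 to 1.13. TNF and TGF-β1 differed in 4 members (6.22%), 3 higher after TNF (3.2%) and 1 lower (3.03%). FADS1 was 1.20 higher after TNF (SE 0.24, adjusted p = 0.000486), ACAT2 0.94 higher (SE 0.19, adjusted p = 0.000748) and INSIG1 0.98 higher (SE 0.31, adjusted p = 0.0447), while NPC2 differed by -0.76 (SE 0.22, adjusted p = 0.0213). The INSIG1 call was lost without TGF-β1 library 2, 3 or 4 or TNF library 2, 3 or 4 (adjusted p 0.0525 to 0.179) or with all genes of any count (0.0617), and the NPC2 call without TGF-β1 library 1 or 3 or TNF library 4 (0.0707 to 0.119) or with only the 2 groups fitted (0.0938).

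OSM and IL-6, cytokines that share the gp130 receptor chain, differed in 4 members (2.67%), 1 higher after OSM (0.988%) and 3 lower (1.68%). OSM libraries were lower in ACAT2 (-1.08, SE 0.20, adjusted p = 0.00034), MSMO1 (-0.98, SE 0.21, adjusted p = 0.00263) and HMGCS1 (-1.27, SE 0.35, adjusted p = 0.0346), and higher in NPC1 (1.46, SE 0.37, adjusted p = 0.0164). After IL-6, HMGCS1 stood at 221, 292, 401 and 350 CPM, all above the OSM libraries, and MSMO1 at 182, 137, 174 and 178 CPM. The HMGCS1 call was lost without IL-6 library 2, 3 or 4 or OSM library 1, 2 or 3 (adjusted p 0.0552 to 0.184), and the NPC1 call without IL-6 library 3 or 4 or OSM library 2 (0.051 to 0.0721). ACAT2 and MSMO1 kept their calls in all 15 other fits of each.

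Around these members, a list of 30 other sterol and lipid genes had 19 tested. Called were LIPA, the lysosomal lipase that frees cholesterol from its esters, which fell after IL-1β (-1.78, adjusted p = 0.00331), TNF (-2.14, adjusted p = 0.000428) and TGF-β1 (-1.56, adjusted p = 0.019). TMEM97, known as a regulator of NPC1, fell after IFNα (-1.20, adjusted p = 0.00954) and IFNγ (-1.02, adjusted p = 0.0324), ELOVL6, an elongase, fell after IFNα (-1.31, adjusted p = 0.000399), and ACLY, which supplies cytosolic acetyl-CoA, rose after TGF-β1 (0.68, adjusted p = 0.0161). For IL-6, IL-13, IL-17A, IL-22 and OSM none of the 19 passed. After OSM, where 5 of the 22 members were called, the median log2 difference of these 19 genes was 0.02.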

How the data were processed

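The authors sequenced NEBNext Ultra II libraries on an Illumina NovaSeq, checked reads with FastQC (0.11.9) and MultiQC (1.14), and quantified them with kallisto (0.48.0). They deposited estimated counts per gene symbol, not scaled for depth. The submitters' notes name hg38. Which transcriptome was used, how transcripts became symbols and whether strand was used are not given in the sources used here.

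The deposited values were rounded. Genes were filtered with filterByExpr over the 11 groups, libraries were scaled by TMM, and 1 quasi-likelihood model without covariates took in all 44 libraries (edgeR 4.0.16, R 4.3.3), which pools the spread of every group (common BCV 0.331). SE is the log2 fold change divided by the root of F. P-values were two-sided and adjusted by the Benjamini-Hochberg method over the 9513 genes of each comparison, and genes were called at an adjusted p under 0.05. CPM are counts scaled to the TMM library size, and CPM per kb divide them by the length of the canonical transcript. GENCODE (release 44, GRCh38) held the names of 99.23% of symbols. It gave coordinates and exon overlaps for the 32 members, and transcript length and GC content for them and for 99.77% of tested genes. RefSeq gave promoters. Of genes with several starts the first listed was taken.

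The median tested gene had 34 counts in an unstimulated library. Limits from 0 counts cover counting error alone, as PCR copies were not marked. Across 66 replicate pairs the lowest chi-square per degree of freedom was 3.21, and 0 pairs were identical. The members and lists were chosen with earlier results of these data known. Values in every library are given for members called for any cytokine, and for CH25H, INSIG1, SREBF1, SREBF2 and HMGCS1. The LIPA, TMEM97, ELOVL6 and ACLY values are those of all genes of their list called against unstimulated cells. The code was tested on simulated data.

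Alternatives were DESeq2's size factors, DESeq2's Wald test (1.42.0), no count filter beyond any count, a filter of 10 counts in 4 libraries, a fit of the compared libraries alone, replicate number as a block, a further fold threshold of 1.5 (log2), each library left out, and, chosen after seeing the data, each library's loess trend of log2 CPM on GC content and length removed as an offset.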

Additional observations from a re-analysis of the deposited data

Results flagged for a closer look

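In the groups of 4 libraries of the 14 called members, 154 in all, 8 had 1 library standing apart from the other 3, its gap to the nearest being most of the group's range (Dixon's 95% critical value). Chance flags about 1 in 20 groups. EBP was at 49.0 CPM in IL-22 library 2 with the others at 118 to 122, FDPS at 160 in IL-22 library 3 with the others at 111 to 116, and STARD4 at 33.7 in IL-17A library 3 with the others at 27.6 to 28.1. In IFNα, IDI1 was at 136 CPM in library 2 with the others at 161 to 165, and NPC1 at 29.9 in library 4 with the others at 16.5 to 17.5. MSMO1 was at 137 CPM in IL-6 library 2 with the others at 174 to 182, FADS1 at 49.2 in TGF-β1 library 4 with the others at 38.3 to 39.9, and NPC1 at 25.5 in IL-13 library 2 with the others at 8.08 to 8.88. None of these 8 groups gave a call for that gene against unstimulated cells.

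Direct tests found 13 differences of members between cytokines. On the log2 scale, IFNα less IFNγ gave STARD4 1.68, MSMO1 1.01, SCD 0.85, FDPS -0.70 and NPC2 -0.91. TNF less TGF-β1 gave FADS1 1.20, INSIG1 0.98, ACAT2 0.94 and NPC2 -0.76. OSM less IL-6 gave NPC1 1.46, MSMO1 -0.98, ACAT2 -1.08 and HMGCS1 -1.27.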

How the results depend on the processing

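Of 37 member changes called, 19 kept their direction and side of the threshold in all 15 other fits of each, 22 did so in every fit with 1 library left out, and 0 reversed. Member counts moved by more than 1.5 times as follows. With an absolute log2 fold change above 1.5 also required, counts were 1 for IL-1β, IFNγ and OSM, 2 for TNF and 0 for TGF-β1, and between cytokines 1 for IFNα against IFNγ, 0 for TNF against TGF-β1 and 0 for OSM against IL-6. With all genes of any count they were 1 for IL-13, IL-17A and TNF against IL-1β, and 3 for TGF-β1. With only the libraries compared they were 2 for IFNγ, 0 for TGF-β1 and 3 for OSM, and with DESeq2 1 for IL-17A and 2 for TGF-β1. With the GC and length trend removed they were 4 for IFNα (EBP and ACAT2 gained), 3 for TGF-β1 (IDI1 and NPC1 gained) and 3 for OSM (MSMO1 and STARD4 lost). With 1 library left out, counts ran from 4 to 6 for IL-1β, 4 to 7 for TNF, 3 to 4 for OSM, 3 to 6 for IFNγ, 1 to 2 for IFNα, 0 to 1 for TGF-β1 and IL-17A, 4 to 6 for IFNα against IFNγ, 2 to 5 for TNF against TGF-β1, 2 to 4 for OSM against IL-6 and 17 to 19 over all groups, and stayed at 0 for IL-6, IL-13, IL-22 and TNF against IL-1β. The causes were not tested. Members under about 10 CPM rest on few counts. What the replicate number stands for is not given. Each cytokine library's deviations from its group mean were correlated with those of the unstimulated library of the same number. The 40 correlations ran from -0.0865 to 0.281, and 6 were over 0.1. Among these were library 1 of IL-6 (0.281), IFNα (0.277), OSM (0.25) and TGF-β1 (0.167), so some libraries of the same number shared deviations. This did not hold for the numbers as a whole. Of the 40 libraries, 15 correlated most with the unstimulated library of their own number, and 0 groups had all 4 correlations over 0.1. Fitted as a block, the replicate number left the counts at 5 for IL-1β, 7 for TNF and 5 for OSM. It changed the count over all groups from 18 to 19, and changed no call of the 37.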
